A study of Homo sapiens with 6 samples.

Results

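The genes of the cytosolic ribosomal proteins were examined in the RNA-seq data of OVCAR3 cells, an established human ovarian carcinoma line, with and without a hairpin against NUF2. The rule for the genes used symbols alone, and the family was picked with earlier results of these data known. A gene was included when its symbol was RPL or RPS followed by a number, with or without the letters A, X or L and a closing numeral, or when it was RPLP0, RPLP1, RPLP2 or RPSA. Of the 19973 genes in the deposited table, 85 met this rule. They comprised 53 genes of the large subunit (RPL and RPLP) and 32 of the small subunit (RPS and RPSA), spread over 21 chromosomes. RPL3L and RPL10L had too few reads to be tested, which left 83 members.

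A total of 6 libraries were sequenced, 3 from cells transfected with shNC, a control hairpin (genotype label WT), and 3 from cells transfected with shNUF2 (genotype label NUF2 knockdown). The NUF2 hairpin was carried by a vector with a U6 promoter and puromycin resistance, and the control cells had been through transfection as well. A single hairpin against NUF2 was used, and the labels do not say whether the 3 libraries of a group came from separate cultures or whether a line is 1 clone. The p-values below therefore measure the spread between these libraries, which may be technical. In bulk RNA, fewer transcripts in every cell and a smaller share of cells that express a gene cannot be told apart.

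The ribosome is built from ribosomal RNA and a single copy of most of its proteins, which are encoded by genes scattered over the genome. Their mRNAs are short and abundant, and most begin with a C followed by a tract of pyrimidines at the 5′ end, the TOP motif (terminal oligopyrimidine), through which the mTOR pathway controls their translation in growing cells. Several ribosomal protein genes have a retained paralog, a second gene for nearly the same protein, and some free ribosomal proteins bind MDM2 and thereby stabilise p53.

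The total number of reads counted on genes was 14115009 to 16995452 with shNC and 13057534 to 15227460 with shNUF2, and the tested member with the fewest reads had 187 in all libraries together. Counts were scaled by edgeR's TMM method and are given as CPM, reads scaled to a common library size, and a log2 fold change is that of shNUF2 against shNC. NUF2, which encodes a subunit of the NDC80 kinetochore complex (ENSG00000143228, chromosome 1 from 163266576 to 163355764), had 903, 1096 and 1092 reads with shNC against 281, 290 and 384 with shNUF2, a log2 fold change of -1.51 (SE 0.08). Of 10 ovarian carcinoma markers, 8 had enough reads to be tested, from KRT7 (667 CPM with shNC), MSLN (391 CPM) and KRT8 (337 CPM) down to PAX8 (10.1 CPM), EPCAM (3.39 CPM) and CDH1 (1.38 CPM), while WT1 and KRT19 had at most 8 reads in any library. These markers moved as well, with KRT8 (log2 fold change 1.04), EPCAM (0.69), PAX8 (0.64) and KRT18 (0.55) higher and MUC16 (-0.75), MSLN (-0.75) and KRT7 (-0.22) lower, and EPCAM missed the threshold without shNUF2 replicate 1 (edgeR adjusted p = 0.078). The groups overlapped in KRT7, which was at -0.31 without shNC replicate 1 and -0.14 without shNC replicate 3. Markers of other cell types summed to 85.7 to 93.0 CPM with shNC and 72.2 to 80.1 CPM with shNUF2, most of it COL1A1, and HBB, CD3E and CD68 had at most 2 reads in any library. PTPRC had 0, 1 and 0 reads with shNC against 6, 11 and 6 with shNUF2, and COL3A1 had 1, 0 and 2 against 15, 15 and 5. Of these 12 markers 4 were tested, and DCN (3.65 to 8.47 CPM) and CDH5 (0.122 to 1.46 CPM) were higher and COL1A1 lower. Their part in the results below was not tested.

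The start sites of the members on which the results turn are shown for their pyrimidine tracts. Each sequence is 30 bases of RefSeq GRCh38.p14 on the strand of the gene, 15 bases before the annotated start and 15 from the start on, with the run of pyrimidines that holds the start in capitals. First come 6 of the 8 members with the lowest log2 fold changes, and RPL11, which was higher.
RPL22, chr1:6199581-6199610, minus strand: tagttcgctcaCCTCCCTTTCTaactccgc
RPS23, chr5:82278340-82278369, minus strand: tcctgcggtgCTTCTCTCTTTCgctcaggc
RPL3, chr22:39319609-39319638, minus strand: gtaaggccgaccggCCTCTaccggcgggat
RPL10A, chr6:35468386-35468415, plus strand: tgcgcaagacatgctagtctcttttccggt
RPS6, chr9:19380222-19380251, minus strand: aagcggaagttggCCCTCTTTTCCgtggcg
RPLP0, chr12:120201097-120201126, minus strand: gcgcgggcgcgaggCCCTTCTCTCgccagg
RPL11, chr1:23691791-23691820, plus strand: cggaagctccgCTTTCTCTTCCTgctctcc

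The next group sets 3 genes beside their paralogs, since the paralog was higher or level where the partner was lower. RPL36A and RPL36AL also meet this and are not shown, and their starts lie within runs of 13 and 15 bases. RPL26 and RPL22L1 begin within a tract, and RPL26L1 and RPS27L do not at any annotated start given.
RPL22L1, chr3:170870181-170870210, minus strand: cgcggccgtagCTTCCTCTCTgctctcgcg
RPL26, chr17:8383179-8383208, minus strand: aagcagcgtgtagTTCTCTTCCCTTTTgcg
RPL26L1, chr5:172958714-172958743, plus strand: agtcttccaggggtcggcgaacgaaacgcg
RPS27, chr1:153990747-153990776, plus strand: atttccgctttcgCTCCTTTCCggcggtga
RPS27L, chr15:63157463-63157492, minus strand: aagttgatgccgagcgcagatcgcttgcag

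Reference windows were given for 68 of the 85 members. A C at an annotated start that opens at least 5 consecutive pyrimidines, counted from the start on, was present in 47 of these 68 (69.1%), against 1404 of all 27305 genes with a window (5.14%). A run of at least 5 pyrimidines that held the start, whatever its first base, was present in 51 members (75%) and in 3258 of all genes (11.9%), and the median length of the run was 11 bases in the members and 0 in all genes. Such a run is a description of these letters at an annotated start and not a measured start or a measured response.

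Reads on ribosomal protein genes took a smaller share of the library with shNUF2. The 85 genes held 4.72%, 4.64% and 4.94% of all counts in the control libraries (replicates 1, 2 and 3), against 3.72%, 3.76% and 3.75% after shNUF2 (same order). The highest shNUF2 library was thus below the lowest shNC library, and the shNUF2 libraries differed from each other by less than the shNC libraries did. The mean share was 4.77% ± 0.156 with shNC against 3.74% ± 0.0233 with shNUF2 (SD, n = 3 each), a difference of -1.03 percentage points (p = 0.1 in a two-sided exact permutation test, which cannot go lower with 3 libraries against 3). Taken per length, as a share of the summed FPKM, the members held 6.88% with shNC and 5.53% with shNUF2. The mRNAs encoded by the mitochondrial genome, of which 13 are listed, took 3.74% ± 0.148 of counts with shNC and 2.53% ± 0.129 with shNUF2 (SD, n = 3 each). With these mRNAs left out of the total, the share of the ribosomal protein genes was 4.95% with shNC and 3.84% with shNUF2.

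**Figure D1:**
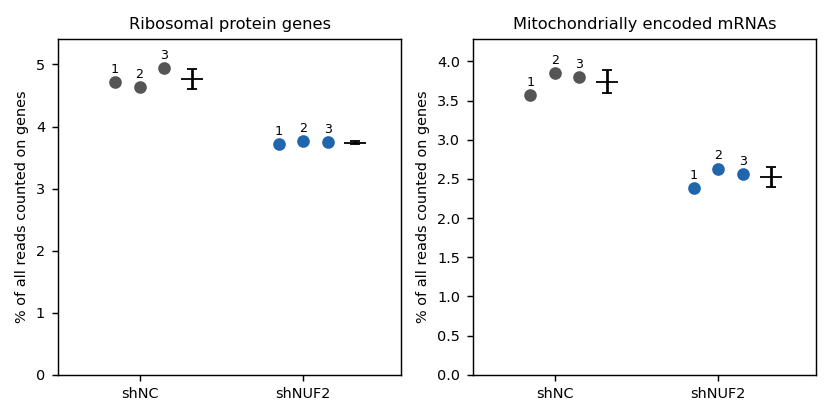
Percent of all reads counted on genes that fell on the 85 ribosomal protein genes (left) and on the 13 mitochondrially encoded mRNAs (right), one point per library with its replicate number, and a bar at the mean with whiskers of 1 SD (n = 3). The shNUF2 libraries sit between 3.72% and 3.76% in the left panel, below the shNC libraries at 4.64% to 4.94%, and in the right panel the groups are apart as well.

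Most members were lower with shNUF2 by a modest amount. Of the 83 tested, 66 were lower (79.5%) at an adjusted p under 0.05 (edgeR's quasi-likelihood test, Benjamini-Hochberg adjustment over all 12874 genes tested), against 33.8% of all genes tested. Only 3 were higher (3.61%), against 33.9% of all genes, and 14 passed in neither direction. The median log2 fold change of the members was -0.28, a fold of 0.822, with quartiles of -0.40 and -0.20 and a range from -0.84 to 0.70. Over all genes tested the median was -0.01 and the quartiles were -0.36 and 0.41. In 64 members (77.1%) all shNUF2 libraries lay below all shNC libraries, against 35.4% of all genes, and in 1 member (1.20%) all lay above, against 35.2%. The changes were small beside the study's thresholds, a log2 fold change beyond 1 in either direction with an unadjusted p under 0.05. These were met by 0 of the members, against 9.41% of all genes in the higher direction and 4.16% in the lower.

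**Figure D2:**
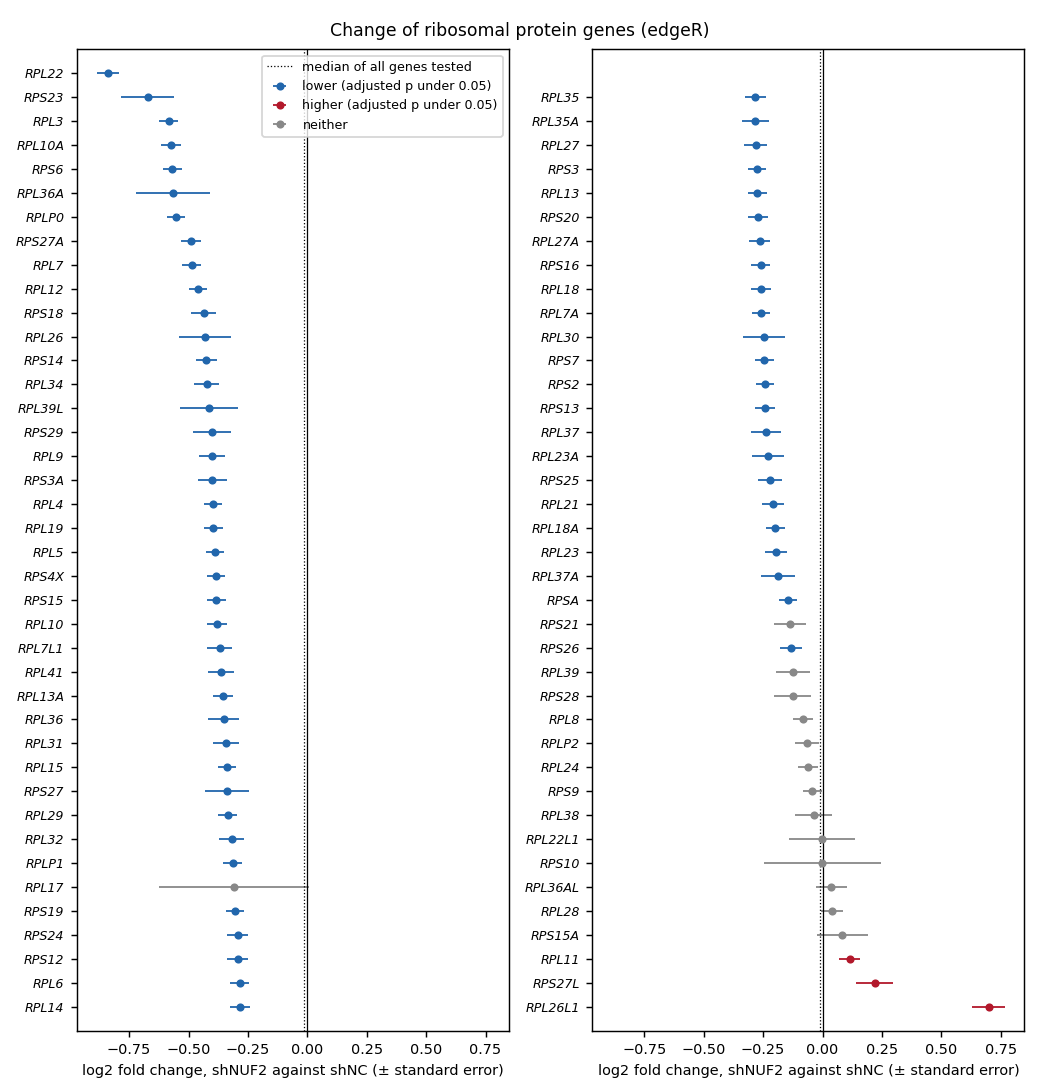
Log2 fold change of 79 of the ribosomal protein genes tested, shNUF2 against shNC, in order from RPL22 to RPL26L1, with whiskers of 1 standard error from edgeR. Blue points were lower (62), red points higher (3) and grey points neither (14), and the dotted line is the median of all genes tested at -0.01.

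Over all genes tested, 33.8% were lower and 33.9% higher. Of 51 large subunit genes tested, 40 were lower and 2 higher, with a median log2 fold change of -0.29, and of 32 small subunit genes 26 were lower and 1 higher, with a median of -0.27. When the 6 tested paralogs were set apart, 38 of 46 large subunit and 26 of 31 small subunit genes were lower, and the only member higher was RPL11. The median level of the members in a library, in log2 CPM, was 8.82, 8.84 and 8.93 with shNC against 8.60, 8.63 and 8.59 with shNUF2. Of the 66 lower members, 63 were called in every fit that left out 1 library. The exceptions were RPL30, RPL37A and RPS26, which without shNC replicate 3 had edgeR adjusted p-values of 0.098, 0.534 and 0.114.

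The largest decrease was in RPL22 (ENSG00000116251, chromosome 1 from 6185020 to 6209389), a large subunit protein that also binds RNA outside the ribosome. RPL22 had 170, 168 and 180 CPM with shNC against 96.7, 94.7 and 98.3 CPM with shNUF2 (replicates 1, 2 and 3, as in all such series). The groups lay far apart beside the spread within each, and the log2 fold change was -0.84 (SE 0.05, edgeR adjusted p = 1.99e-14), a fold of 0.559.

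RPL3 (chromosome 22 from 39312882 to 39320389), a protein close to the peptidyl transferase centre, had 1795, 1652 and 1717 CPM with shNC and 1172, 1116 and 1156 CPM with shNUF2, a log2 fold change of -0.58 (SE 0.04). RPL10A (chromosome 6 from 35468401 to 35470785), a protein of the L1 stalk, had 715, 686 and 722 CPM with shNC and 468, 476 and 482 CPM with shNUF2, a log2 fold change of -0.57 (SE 0.04). In both genes the lowest shNC library was well above the highest shNUF2 library. RPS6 (chromosome 9 from 19375715 to 19380236), the small subunit protein phosphorylated by S6 kinases below mTOR, had 1188, 1190 and 1216 CPM with shNC. It had 811, 831 and 782 CPM with shNUF2, a log2 fold change of -0.57 (SE 0.04).

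Below a log2 fold change of -0.5 were also RPS23 and RPL36A, both with few reads, and RPLP0, described with the stalk. RPS23 (chromosome 5 from 82273320 to 82278396), a protein of the decoding centre, had 270, 279 and 295 reads with shNC against 149, 143 and 173 with shNUF2. These came to 17.9 ± 0.987 CPM and 11.2 ± 0.275 CPM (SD, n = 3 each), a log2 fold change of -0.67 (SE 0.11). RPL36A had 133, 188 and 162 reads with shNC against 87, 103 and 95 with shNUF2, a log2 fold change of -0.57 (SE 0.15). The groups did not overlap in CPM in either gene, and the standard error of RPL36A was over 3 times that of RPL3.

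Among the remaining large subunit genes the decreases were smaller and close to one another. RPL7 (-0.49, SE 0.04) and RPL12 (-0.46, SE 0.04), a protein at the base of the stalk, came next in size, and RPL34 was at -0.42 (SE 0.05). RPL4, which lines the peptide exit tunnel, had a log2 fold change of -0.40 (SE 0.04) and RPL10, a late-joining protein near the active site, -0.38 (SE 0.04). RPL15, RPL29, RPL6, RPL14 and RPL35 lay between -0.34 and -0.28. All of these were lower at the threshold and none overlapped between the groups. RPL41, the shortest member with a coding length of 75 bases, had a log2 fold change of -0.36 (SE 0.05).

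Among the small subunit genes, RPS27A, which is made as a fusion with ubiquitin, had a log2 fold change of -0.49 (SE 0.04). RPS14 was at -0.42 (SE 0.04) and RPS29 at -0.40 (SE 0.08). RPS19, the gene most often mutated in Diamond-Blackfan anaemia, had 704 ± 5.20 CPM with shNC and 570 ± 10.2 CPM with shNUF2 (SD, n = 3 each), a log2 fold change of -0.30 (SE 0.04). RPS3, a protein at the mRNA entry channel, had 1330 ± 31.6 CPM and 1099 ± 18.3 CPM (SD, n = 3 each), a log2 fold change of -0.28 (SE 0.04). The groups did not overlap in any of these genes.

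Among the called members with the weakest decreases were RPS26, RPSA, RPL37A and RPL23. RPSA, the small subunit protein also known as a laminin receptor, had 997, 981 and 972 CPM with shNC and 887, 888 and 894 CPM with shNUF2, a log2 fold change of -0.14 (SE 0.04). The spread within each group was small, so that a change of this size passed the test with no overlap. RPL23, a large subunit protein that binds MDM2, had 477, 463 and 527 CPM with shNC and 419, 442 and 421 CPM with shNUF2, a log2 fold change of -0.20 (SE 0.05). RPS26 had 229, 242 and 260 CPM with shNC and 223, 225 and 219 CPM with shNUF2, a log2 fold change of -0.13 (SE 0.05, edgeR adjusted p = 0.0140), and the adjusted p was 0.114 without shNC replicate 3 and 0.058 without shNUF2 replicate 3. RPL37A had 216, 204 and 281 CPM with shNC and 212, 199 and 205 CPM with shNUF2, so that the groups overlapped. Its log2 fold change of -0.19 (SE 0.07) became -0.04 without shNC replicate 3, and RPL37A also missed the threshold without shNUF2 replicate 2 or 3 (edgeR adjusted p = 0.094 and 0.055). RPL30 (-0.25, SE 0.09) likewise missed it without shNC replicate 3, shNUF2 replicate 2 or shNUF2 replicate 3 (edgeR adjusted p = 0.098, 0.076 and 0.070).

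A total of 14 members passed in neither direction. RPL8, a protein at the peptidyl transferase centre and among the 5 highest members per length, had 1558, 1452 and 1439 CPM with shNC and 1411, 1377 and 1414 CPM with shNUF2. The groups did not overlap, but the log2 fold change of -0.08 (SE 0.04) missed the threshold (edgeR adjusted p = 0.0726), and the value moved when 1 control library was left out, to -0.11 without shNC replicate 3 (edgeR adjusted p = 0.035) and to -0.05 without shNC replicate 1 (edgeR adjusted p = 0.254). RPL24 (-0.06, SE 0.04), RPS9 (-0.04, SE 0.04) and RPL28 (0.04, SE 0.05) had standard errors as small as those of the lower members and groups that overlapped. RPL24 was at -0.02 without shNC replicate 3, and RPL28 at -0.01 without shNC replicate 2 and 0.08 without shNC replicate 3. RPS21 (-0.14, SE 0.07), RPL39 (-0.13, SE 0.07), RPS28 (-0.13, SE 0.08) and RPL38 (-0.04, SE 0.08) are short genes with larger errors. RPS21 and RPL39 passed as lower without shNC replicate 1 (-0.21 and -0.19, edgeR adjusted p = 0.00375 and 0.0109) and without shNC replicate 2 (-0.20 and -0.21, edgeR adjusted p = 0.0220 and 0.0144). RPS28 passed as lower without shNC replicate 2 (-0.22, edgeR adjusted p = 0.0157). Without shNC replicate 3 the log2 fold changes of RPS21, RPL39, RPS28 and RPL38 were 0.00, 0.03, 0.01 and 0.11, and none passed. RPL17, RPS10 and RPS15A had few reads for ribosomal protein genes, at 2.28, 3.02 and 17.7 CPM with shNC, and RPLP2, RPL22L1 and RPL36AL are described below.

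The P stalk, which recruits elongation factors to the large subunit, has RPLP0 as its base and RPLP1 and RPLP2 as its arms. RPLP0 (chromosome 12 from 120196699 to 120201235) had 1969, 1931 and 1976 CPM with shNC and 1343, 1328 and 1332 CPM with shNUF2, a log2 fold change of -0.55 (SE 0.04, edgeR adjusted p = 7.33e-13). RPLP1 had 409, 434 and 436 CPM with shNC and 346, 339 and 344 CPM with shNUF2, a log2 fold change of -0.31 (SE 0.04). RPLP2 had 228, 236 and 262 CPM with shNC and 225, 232 and 238 CPM with shNUF2, a log2 fold change of -0.07 (SE 0.05). The groups were apart in RPLP0 and RPLP1 and overlapped in RPLP2. RPLP2 was at -0.11 without shNC replicate 1 (edgeR adjusted p = 0.0458) and at -0.01 without shNC replicate 3, and the differences between the log2 fold changes of these 3 genes were not tested.

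RPL5 and RPL11 join the 5S rRNA in a particle that enters the large subunit and, when free, binds MDM2. RPL5 had 941, 931 and 926 CPM with shNC and 715, 713 and 709 CPM with shNUF2, a log2 fold change of -0.39 (SE 0.04, edgeR adjusted p = 1.27e-09). RPL11 (chromosome 1 from 23691742 to 23696835) had 521, 495 and 551 CPM with shNC and 586, 562 and 548 CPM with shNUF2. In RPL5 every shNUF2 library was below every shNC library, and in RPL11 the lowest shNUF2 library was just below the highest shNC library. The log2 fold change of RPL11 was 0.11 (SE 0.04, edgeR adjusted p = 0.0259). Its edgeR adjusted p was 0.178 without shNC replicate 2, where the log2 fold change was 0.07, 0.121 without shNUF2 replicate 1 and 0.115 when libraries were scaled by their totals alone. RPL26, which also binds MDM2 and p53 mRNA, is described with its paralog.

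Some members are widely used as reference genes in quantitative PCR, among them RPLP0, RPL13A, RPL32 and RPS18. All 4 were lower with shNUF2, against 33.8% of all genes tested, with RPLP0 the most. RPL13A had 1095, 1015 and 1113 CPM with shNC and 824, 841 and 855 CPM with shNUF2, a log2 fold change of -0.35 (SE 0.04). RPL32 had 619, 547 and 661 CPM with shNC and 511, 464 and 490 CPM with shNUF2, a log2 fold change of -0.32 (SE 0.05). RPS18 had 1008, 992 and 1186 CPM with shNC and 809, 763 and 783 CPM with shNUF2, a log2 fold change of -0.44 (SE 0.05). The groups did not overlap in any of them.

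Per length, on the FPKM scale of the deposited table, the highest members with shNC were RPL7A (800 ± 19.0 FPKM), RPL8 (696 ± 27.8 FPKM), RPS2 (695 ± 1.96 FPKM), RPL41 (651 ± 72.8 FPKM) and RPS18 (587 ± 59.5 FPKM, SD, n = 3 each). RPL7A lay above RPL8 by more than their spread, whereas RPL8 and RPS2, RPS2 and RPL41, and RPL41 and RPS18 did not differ beyond theirs. With shNUF2 the same genes had 651 ± 11.4, 640 ± 6.23, 574 ± 17.5, 493 ± 10.8 and 423 ± 8.44 FPKM (SD, n = 3 each). RPL7A had 1782, 1713 and 1805 CPM with shNC and 1466, 1462 and 1502 CPM with shNUF2, a log2 fold change of -0.26 (SE 0.04). RPS2 had 1653, 1628 and 1637 CPM with shNC and 1364, 1421 and 1376 CPM with shNUF2, a log2 fold change of -0.24 (SE 0.04). The deposited length is a gene length in base pairs, 8825 bases for RPS27L with its coding length of 252 bases. Which exons it includes was not checked. Where it exceeds the length of the expressed transcript, FPKM understates a member.

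Of 6 paralogs tested, 2 were lower, 2 higher and 2 neither, which is near the share of all genes tested (33.8% lower, 33.9% higher), with a median log2 fold change of 0.02. RPL26L1 (ENSG00000037241, chromosome 5 from 172958729 to 172969771) had 39.2, 48.3 and 43.5 CPM with shNC and 68.9, 70.9 and 73.1 CPM with shNUF2. It was the only member in which all shNUF2 libraries lay above all shNC libraries, and its log2 fold change was 0.70 (SE 0.07, edgeR adjusted p = 1.07e-09), a fold of 1.62. Its partner RPL26 had 19.5, 20.3 and 20.9 CPM with shNC and 13.4, 14.0 and 17.4 CPM with shNUF2, a log2 fold change of -0.43 (SE 0.11). The 2 genes moved in opposite directions with no overlap in either.

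RPS27L, a p53 target gene, had 51.0, 43.0 and 55.2 CPM with shNC and 56.1, 54.6 and 62.9 CPM with shNUF2, a log2 fold change of 0.22 (SE 0.08, edgeR adjusted p = 0.0146). The groups overlapped, and the adjusted p was 0.162 without shNC replicate 2, where the log2 fold change was 0.12, 0.124 without shNUF2 replicate 3 and 0.128 with limma on log2(FPKM + 1). Its partner RPS27 had 260, 252 and 383 CPM with shNC and 252, 223 and 234 CPM with shNUF2, a log2 fold change of -0.34 (SE 0.09). RPS27 stood high in shNC replicate 3 alone, and its log2 fold change was -0.12 without that library.

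RPL22L1 had 9.35, 13.07 and 11.97 CPM with shNC and 10.7, 10.9 and 12.8 CPM with shNUF2, a log2 fold change of 0.00 (SE 0.14), while RPL22 had the largest decrease of all members. RPL36AL had 67.1, 63.5 and 75.8 CPM with shNC and 74.4, 69.4 and 68.3 CPM with shNUF2, a log2 fold change of 0.04 (SE 0.06), beside RPL36A at -0.57. RPL39L and RPL7L1 went the other way from these and were lower. RPL39L had 16.0, 14.1 and 15.9 CPM with shNC and 12.2, 9.84 and 12.4 CPM with shNUF2, a log2 fold change of -0.42 (SE 0.12). RPL7L1, a nucleolar protein of ribosome assembly, had 192, 227 and 207 CPM with shNC and 160, 167 and 159 CPM with shNUF2, a log2 fold change of -0.37 (SE 0.05). RPL39 itself had 268, 260 and 356 CPM with shNC and 278, 266 and 268 CPM with shNUF2, so that the groups overlapped. RPL7 had 651, 632 and 660 CPM with shNC and 453, 475 and 459 CPM with shNUF2, with no overlap.

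The ratio of reads of a paralog to those of its partner was then compared within each library, which needs no scaling between libraries. For RPL26L1 to RPL26 it was 216% ± 19.8 with shNC and 480% ± 52.1 with shNUF2 (SD, n = 3 each), a difference of 1.15 in the log2 ratio. For RPL22L1 to RPL22 it was 6.64% ± 1.15 and 11.9% ± 1.01 (SD, n = 3 each), a log2 difference of 0.85. For RPL36AL to RPL36A it was 688% ± 135 and 1037% ± 143 (SD, n = 3 each), a log2 difference of 0.60, and for RPS27L to RPS27 it was 17.0% ± 2.63 and 24.5% ± 2.30 (SD, n = 3 each), a log2 difference of 0.53. In these 4 pairs the groups did not overlap, and each had p = 0.1, the smallest p possible with 3 libraries against 3, and 0.15 after adjustment over the 6 pairs (exact two-sided permutation tests). RPL39L to RPL39 went from 5.28% to 4.23% (exact permutation p = 0.2, adjusted 0.24) and RPL7L1 to RPL7 from 32.2% to 35.0% (exact permutation p = 0.4), both with overlap. These are ratios of reads, which depend on the length of both transcripts, and not ratios of molecules. The main transcripts of RPL26 and RPL36A were also overlapped by other genes, over 59.0% and 77.6% of their length. Their reads may have been counted in part only, so the levels of these 2 ratios do not give the balance between the paralogs. RPL3L, the striated muscle paralog of RPL3, had 0, 5 and 4 reads with shNC against 8, 13 and 5 with shNUF2, and RPL10L, a testis paralog of RPL10, had 0 reads in every library.

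**Figure D3:**
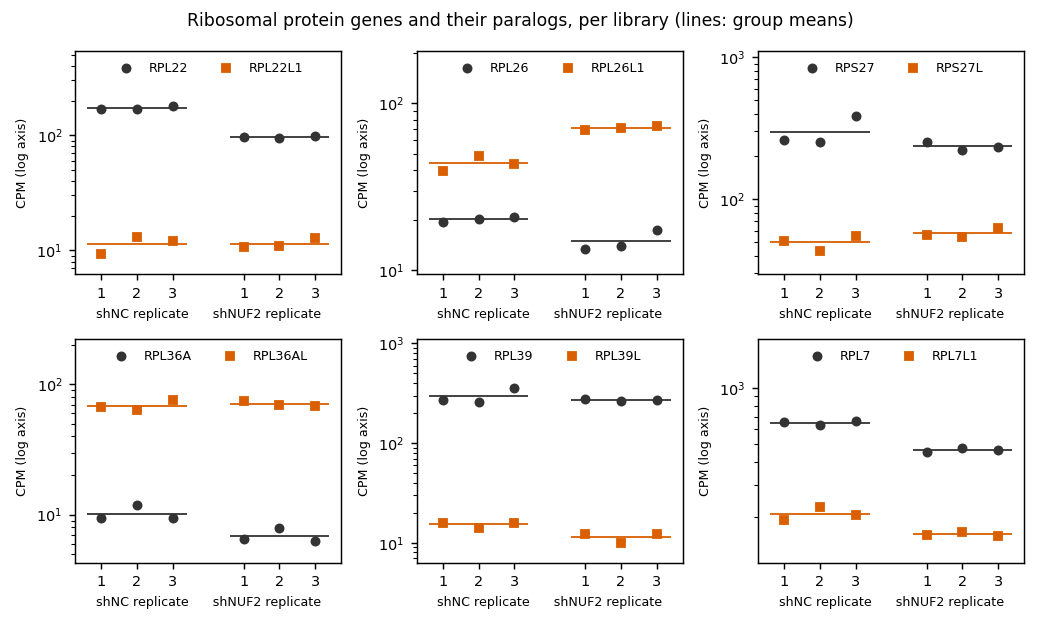
CPM of 6 ribosomal protein genes (dark circles) and their paralogs (orange squares) in each library on log axes, with lines at the group means. RPL26L1 is higher and RPL26 lower in all 3 shNUF2 libraries, RPL22 is lower beside a level RPL22L1, and RPS27 and RPL39 stand high in shNC replicate 3.

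The short members stood apart in 1 control library. Of the 11 tested members with a coding length of at most 300 bases, 10 were highest among the shNC libraries in replicate 3, and their median deviation from the mean of the shNC libraries was 0.25 on the log2 scale there, against -0.09 and -0.15 in replicates 1 and 2. Of the 72 longer members 47 were highest in that library, with a median deviation of 0.03. Over the 83 members the excess of shNC replicate 3 over the other two shNC libraries had a Pearson r of -0.52 and a Spearman rho of -0.58 with the log2 coding length, given as a description of genes that share the same 3 libraries. Over all genes tested, the 270 with a coding length of at most 300 bases had a median excess of 0.06 in shNC replicate 3, and the 1834 longer than 3000 bases one of -0.01.

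**Figure D4:**
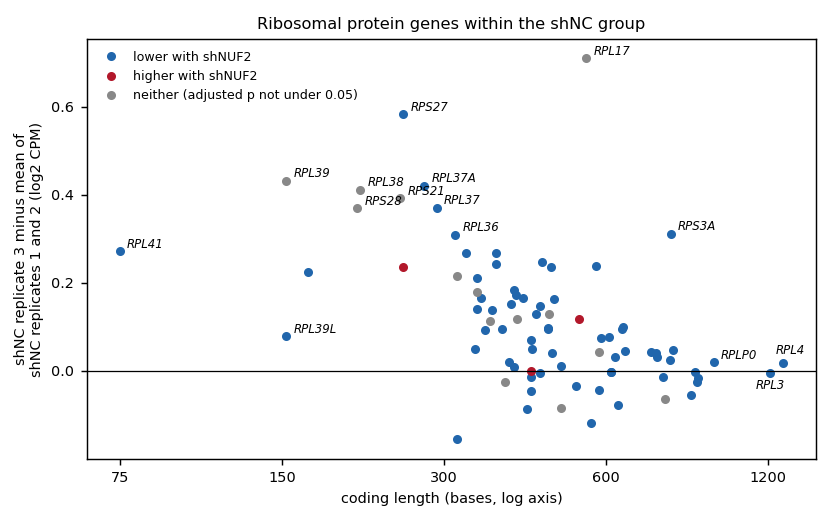
Level of each of the 83 ribosomal protein genes in shNC replicate 3 minus the mean of shNC replicates 1 and 2 (log2 CPM) against its coding length (log axis), coloured by the call with shNUF2. Short genes such as RPS27, RPL39, RPL38, RPL37A and RPL37 lie above 0.3, and the longest, RPLP0, RPL3 and RPL4, lie near 0. The highest point is RPL17 (552 bases, few reads) at 0.71. RPS3A (792 bases) and RPL36 (315 bases) are also above 0.3, and RPL39L (153 bases) is at 0.08.

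Without shNC replicate 3, 64 members were lower and 3 higher, with a median log2 fold change of -0.25. The short members then had a median of -0.04, from -0.19 with all libraries, and 5 rather than 6 of 11 were lower, against 33.8% of all genes tested with all libraries. The longer members had a median of -0.26, from -0.29, and 59 rather than 60 of 72 were lower. The decrease shrank by over 1.5 times in 5 called members, among them RPS27 (-0.34 to -0.12), RPL37 (-0.24 to -0.11), RPS25 (-0.22 to -0.14) and RPL37A (-0.19 to -0.04). With all libraries in DESeq2's Wald test, RPS27, RPL37 and RPL37A had Benjamini-Hochberg adjusted p-values of 0.159, 0.105 and 0.285. By coding length, the median log2 fold change was -0.28 in 49 members of 301 to 600 bases, -0.35 in 20 of 601 to 900 bases and -0.55 in 3 of 901 to 1500 bases, and it was -0.25, -0.32 and -0.55 without that library. Over all genes tested, the medians in the same classes were -0.02, -0.03 and -0.02 with all libraries. In the class of up to 300 bases the median of all 270 genes tested was -0.03, and 0.03 without that library.

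Some members share exons or sequence with other genes, so that reads may have been counted elsewhere or dropped. The main transcript of RPL17 was overlapped over 91.0% of its length on the same strand by the read-through gene RPL17-C18orf32, that of RPL36A over 77.6%, RPS10 over 77.0% (by RPS10-NUDT3), RPL26 over 59.0% and RPS15A over 41.5%. The overlapping genes had 0 reads in every library, and these members had low counts. Without the 6 members overlapped over more than 40%, 63 of 77 were lower and 3 higher, against 33.8% and 33.9% of all genes tested, with a median log2 fold change of -0.28. Many members also have processed pseudogenes, of which GENCODE release 29 names 91 for RPL23A, 74 for RPSA, 66 for RPL21 and 61 for RPL7. How reads shared with such copies were counted is not given in the sources used here, and values for these genes are uncertain to that extent.

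The members were then divided by the pyrimidine run at the annotated start, and the difference between the 2 sets was not tested. Of 51 tested members with a run of at least 5, 40 were lower, 1 higher and 10 neither, with a median log2 fold change of -0.28. Of 16 without one, 12 were lower, 2 higher and 2 neither, with a median of -0.33. Over all genes tested 33.8% were lower and 33.9% higher. RPL10A, without a run at its annotated start, was among the 8 lowest members, and RPL11, with a run of 12 bases, was higher. In RPL10A the annotated base is an A, and a stretch of pyrimidines follows shortly after it. The division rests on the annotated base, so members counted as without a run may hold a tract close by. The 2 higher members without a run were the paralogs RPL26L1 and RPS27L.

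Genes that encode other parts of the translation machinery were compared by lists. Outside the naming rule, RACK1, a scaffold on the small subunit, was lower at 1809 CPM with shNC and 1437 CPM with shNUF2 (log2 fold change -0.33). FAU, the fusion gene of RPS30, was in neither class at 33.7 and 34.0 CPM (0.01). Of 21 tested genes listed as having TOP mRNAs, mostly translation factors, 9 were higher and 8 lower, with a median log2 fold change of 0.01. Over all genes tested, 33.9% were higher and 33.8% lower. The start sites of the listed genes were not examined. EEF1B2, an exchange factor of elongation factor 1, had 199 ± 5.44 CPM with shNC and 119 ± 0.799 CPM with shNUF2 (SD, n = 3 each, log2 fold change -0.75). EIF3F, a subunit of initiation factor 3, had 112 ± 2.62 CPM and 179 ± 7.37 CPM (SD, n = 3 each, log2 fold change 0.67). The initiation factor 3 subunits EIF3A (-0.38) and EIF3L (-0.31) were lower, and the helicase EIF4A2 (0.42) and the histone chaperone NAP1L1 (0.38) higher.

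Among ribosome assembly factors, 29 of 56 were lower and 14 higher, against 33.8% and 33.9% of all genes tested, with a median of -0.20. The lowest were WDR12, a factor of large subunit maturation (54.1 ± 3.10 CPM with shNC, 31.7 ± 2.54 with shNUF2, SD, n = 3 each, log2 fold change -0.77), the nucleolar helicase DDX21 (-0.75) and UTP20 of the small subunit processome (-0.65). The highest were ZNF622, a late factor of the large subunit (0.64), the nucleolar GTPase GNL2 (0.54) and EFL1 (0.45), which takes part in the release of eIF6 from the large subunit. Of 15 genes of RNA polymerase I and its factors, 5 were lower and 5 higher, which is the share of all genes tested (33.8% and 33.9%), with a median of 0.02. The catalytic subunits POLR1A (-0.70) and POLR1B (-0.61) and the subunit POLR1E (-0.26) were lowest, and POLR1G (0.76), TAF1D (0.44) and TTF1 (0.37) highest. POLR1G had at most 70 reads in any library, and its call was lost without shNC replicate 3, shNUF2 replicate 2 or shNUF2 replicate 3 (largest edgeR adjusted p = 0.148), as was that of POLR1E without shNC replicate 1 or shNUF2 replicate 1 (largest edgeR adjusted p = 0.0635).

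Proteins of the mitochondrial ribosome, which translates the mRNAs of the mitochondrial genome, were lower in 38 of 76 genes and higher in 9, against 33.8% and 33.9% of all genes tested, with a median log2 fold change of -0.22. MRPL19 had 1056, 1228 and 1226 reads with shNC against 180, 156 and 187 with shNUF2, a log2 fold change of -2.56 (SE 0.08, edgeR adjusted p = 3.72e-20), and was the only gene past the study's thresholds in the 5 lists of the ribosome and translation. MRPS16 (-0.98) and MRPL1 (-0.87) came next. Among the genes past the test, MRPL46 (0.79), MRPL10 (0.64) and MRPL49 (0.31) were highest. MRPL46 had at most 58 reads in any library, and its call was lost without shNC replicate 1, shNC replicate 3 or shNUF2 replicate 3 (largest edgeR adjusted p = 0.0779).

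**Figure D5:**
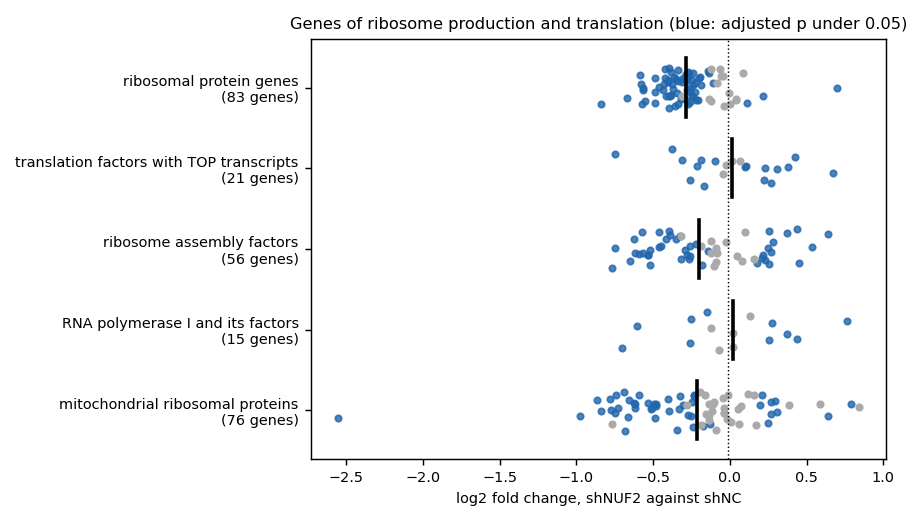
Log2 fold change of each gene tested in 5 lists, shNUF2 against shNC, with the vertical scatter within a row for legibility only. Blue points had an adjusted p under 0.05, black bars are the list medians (-0.28, 0.01, -0.20, 0.02 and -0.22 from top to bottom), and the dotted line is the median of all genes tested.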

How the data were processed

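RNA of OVCAR3 cells transfected with shNC or shNUF2 was sequenced by the authors from stranded mRNA libraries, 3 per group, and the labels gave each library's group and replicate number. The authors deposited counts of reads per gene, without normalization, for 19973 genes, and FPKM values. The FPKM values equal the count divided by the deposited gene length and the library total, to within a relative deviation of 2.71e-07. The submitters' processing notes name cutadapt, HISAT, HTSeq and GRCh38.p13. Their versions, the strand setting and the treatment of reads shared between genes are not given in the sources used here. Library totals of 13057534 to 16995452 reads set the precision of single genes, and the common biological coefficient of variation was 4.93%.

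Counts were tested in edgeR 4.0.16 (R 4.3.3) with filterByExpr, TMM and the quasi-likelihood test, shNUF2 against shNC, 6 libraries and no covariate, with Benjamini-Hochberg adjustment over 12874 genes. The study's thresholds were read on the log2 scale. Shares and paralog ratios (at least 10 reads in every library) were compared by exact permutation tests, which cannot go below p = 0.1. Alternatives were DESeq2 1.42.0 (size factors or Wald test), upper quartile scaling, library totals, TMM factors without the members, other filters, limma 3.58.1 on log2(FPKM + 1) and log2(FPKM + 0.1), a replicate block, and each library left out. The fits were tested on simulated data. Python 3.11.15 with pandas 2.3.3, numpy 2.4.6, scipy 1.17.1 and matplotlib 3.10.9 was used for the rest.

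Coding lengths, overlaps and pseudogene names came from GENCODE release 29 and start sites from RefSeq windows of 250 bases before to 50 after a start. A pyrimidine run was the longest stretch of C or T that holds the annotated start. Genes described with library values were the 8 with the lowest and the 8 with the highest log2 fold change among called members, stalk and 5S rRNA binding proteins, PCR reference genes, paralogs with their partners, the 5 highest per length, and up to 3 genes per direction of each other list. Members outside this rule were added after their values were seen, to account for every class. The members and lists were chosen with earlier results of these data known, and the division at 300 bases of coding length was made after the data were seen. No 2 libraries of a group were alike within counting error (chi-square per degree of freedom 2.65 to 4.37). Some members are not reported here by name.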

Additional observations from a re-analysis of the deposited data

How the results depend on the processing

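The count of lower members was 63 to 70 and the median log2 fold change of all members tested -0.32 to -0.25 over all alternatives, while the median of all genes tested moved by at most 0.04 on the log2 scale with another scaling and stood at 0.07 with no filter on low counts. The count of higher members was 1 with limma on log2(FPKM + 1) and on log2(FPKM + 0.1), and 1 to 3 with each library left out. With no filter, 1 member (RPL3L, 84 tested) passed the study's thresholds. The difference in the share of library counts in members was -1.35 percentage points on summed FPKM and -1.09 to -0.94 with each library left out.

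Sign changes were limited to 8 members that passed in neither direction. Without each library in turn, log2 fold changes ranged from -0.211 to 0.0024 for RPS21, -0.210 to 0.0292 for RPL39, -0.220 to 0.0066 for RPS28, -0.126 to 0.111 for RPL38, -0.128 to 0.0982 for RPL22L1, -0.154 to 0.103 for RPS10, -0.0193 to 0.109 for RPL36AL and -0.0067 to 0.0752 for RPL28. With DESeq2 size factors, its Wald test and the filter of 1 CPM, RPL22L1 was at 0.0048, 0.0055 and 0.0187 and RPS10 at 0.0072, 0.0077 and 0.0205, and with library totals RPL36AL was at -0.00023.

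Replicate numbers did not pair the libraries: deviations from the group means correlated at 0.02, 0.00 and -0.03 between libraries of the same number. With the replicate number as a block, 68 members were lower and 3 higher, the median log2 fold change was -0.28, RPL22L1 was at 0.0043, and no other count of calls given moved by over 1.5 times. Depth limits members with few reads, such as RPL17, RPS10 and RPL36A, and the cause of the differences between settings was not tested.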
